A study of Mus musculus with 2 samples.

Results

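This account describes 10 genes for ligands by which antigen-presenting cells stimulate or restrain T cells (Cd80, Cd86, Cd40, Cd83, Icosl, Cd274, Pdcd1lg2, Cd276, Vtcn1 and Pvr), taken by name from the 34745 genes of an RNA sequencing table. To examine what CHBP, a cyclic peptide derived from erythropoietin, changed in monocytic myeloid-derived suppressor cells (M-MDSCs), bone marrow cells of mice 6 to 8 weeks old were cultured for 7 days with GM-CSF alone (CHBP- M-MDSC) or with CHBP+GM-CSF (CHBP+ M-MDSC), and the M-MDSCs were sorted by flow cytometry as CD11b+Ly6G-Ly6C high cells. GM-CSF, a growth factor of myeloid cells, was thus shared by both groups. The strain is labelled C57BL/6 in the CHBP- sample but C57BL/7 in the CHBP+ sample, and the methods name C57BL/6 for the cultures. Each condition was sequenced as 1 library, so there is no spread between replicates, no test between the conditions, and CHBP cannot be told apart from any other difference between the libraries.

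T cells respond to antigen when a costimulatory signal comes with it. CD80 and CD86 give that signal through CD28 and are taken up by the inhibitory receptor CTLA-4, ICOS ligand acts through ICOS, and CD40 receives help from T cells. PD-L1 and PD-L2, the products of Cd274 and Pdcd1lg2, engage PD-1 and dampen T cells, and PD-L1 is one of the molecules for which suppressive myeloid cells are known. In bulk RNA, fewer cells that carry a transcript and less of it per cell cannot be told apart.

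The sequences around the transcription starts of the PD-1 ligand genes are shown because these neighbouring genes on chromosome 19 had the highest levels of the 10 and were both higher in CHBP+ M-MDSC, and that of Cd80 because it is the CD28 ligand for which a window was at hand. The windows are RefSeq promoters of 300 bases on GRCm38.p6, on the plus strand, at chr19:29367188-29367487 for Cd274, chr19:29410669-29410968 for Pdcd1lg2 and chr16:38458683-38458982 for Cd80. Capitals mark matches, on either strand, to 4 short motifs.
Cd274: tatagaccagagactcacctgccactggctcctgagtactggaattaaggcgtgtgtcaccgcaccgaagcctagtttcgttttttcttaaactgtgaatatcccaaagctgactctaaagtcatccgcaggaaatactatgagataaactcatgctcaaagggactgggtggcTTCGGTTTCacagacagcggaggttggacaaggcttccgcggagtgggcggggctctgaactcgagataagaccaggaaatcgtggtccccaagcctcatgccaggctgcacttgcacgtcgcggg
Pdcd1lg2: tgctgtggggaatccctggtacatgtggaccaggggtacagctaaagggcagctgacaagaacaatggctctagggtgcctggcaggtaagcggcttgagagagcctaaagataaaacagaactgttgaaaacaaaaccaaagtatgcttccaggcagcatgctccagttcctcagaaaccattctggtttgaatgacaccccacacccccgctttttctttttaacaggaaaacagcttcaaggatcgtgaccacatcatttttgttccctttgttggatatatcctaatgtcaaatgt
Cd80: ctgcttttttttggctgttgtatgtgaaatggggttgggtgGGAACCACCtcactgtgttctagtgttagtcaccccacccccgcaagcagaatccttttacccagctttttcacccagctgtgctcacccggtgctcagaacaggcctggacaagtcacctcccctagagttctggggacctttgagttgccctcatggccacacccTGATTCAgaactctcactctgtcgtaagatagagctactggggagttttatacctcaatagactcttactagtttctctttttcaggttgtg

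The motifs searched were GAAANNGAA for interferon regulatory factors, TTCNNNGAA for STAT factors, GGNNNTTCC for NF-kappaB and TGANTCA for AP-1. Windows were at hand for 6 of the 10 genes, and Cd86, Cd40, Cd83 and Pvr were not searched. Among all 32851 promoters of the same length, 8.56%, 8.30%, 18.5% and 7.81% held them. The Cd274 window held 1 match to the interferon regulatory factor motif, starting at position -76 from the transcription start. The Cd80 window held 1 match to the NF-kappaB motif at -209 and 1 to the AP-1 motif at -42. No window held the STAT motif, and those of Pdcd1lg2 and Icosl held none of the motifs, while Cd276 had an NF-kappaB match at -146 and Vtcn1 an AP-1 match at 1. The windows also differed in CpG dinucleotides, with 39 in Cd276, 26 in Icosl, 15 in Cd274, 5 in Vtcn1 and 3 in both Cd80 and Pdcd1lg2, against a median of 7 over all promoters. Such matches describe the letters of the window and do not show that a factor bound there. Sites that differ from these patterns were not searched for, so a window without a match may still hold a site of the same factor.

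Both libraries had a read count for each gene and its FPKM, the count corrected for the length of the gene and for the size of the library. Their total counts were 16484504 (CHBP-) and 16280466 (CHBP+). Of the 10 ligands, 7 reached 1 FPKM in at least one library, Cd40 and Cd276 were detected at under 1 FPKM in either library, and Vtcn1 had no reads. The difference between the libraries is given as the ratio of CPM (reads scaled to the library total alone) with its exact Clopper-Pearson 95% interval, which covers counting error only, and as the log2 ratio of FPKM, CHBP+ over CHBP-, after 1 FPKM was added to each. On that scale, differences of weakly expressed genes come out too small. None of the 7 ligands was 1.5-fold apart on it in either direction. Of all 10948 genes that reached 1 FPKM, 3.42% were at least 1.5-fold higher in CHBP+ M-MDSC, and the share of genes lower by this much was 2.89%. With a trend by gene length described further on removed, the counts behind these shares went from 374 and 316 to 312 and 168.

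The PD-1 ligands dominated the set. Cd274, which encodes PD-L1, was covered by 5368 reads (CHBP-) and 6898 reads (CHBP+). These were 89.9 FPKM and 117 FPKM, which placed it at rank 478 and rank 322 of the 10948 genes. Its ratio of CPM was 1.30, with an interval from 1.26 to 1.35, and its log2 ratio was 0.38. Cd274 (ENSMUSG00000016496) is listed on chromosome 19 from 29367455 to 29388095, with the GRCm38 coordinates of the deposited table. Thus it was the most abundant ligand, and its interval overlapped that of Pvr.

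Pdcd1lg2 (ENSMUSG00000016498), which encodes PD-L2, lies next to it, from 29410919 to 29471157. Its reads numbered 1138 (CHBP-) and 1284 (CHBP+), or 42.0 FPKM and 47.9 FPKM. The ratio of CPM was 1.14 (interval 1.05 to 1.24) and the log2 ratio was 0.19. Both PD-1 ligands were therefore higher in CHBP+ M-MDSC by more than counting error, and both by less than 1.5-fold. Within a library, the FPKM of Cd274 was 2.14 times that of Pdcd1lg2 in CHBP- (interval 2.01 to 2.29) and 2.44 times in CHBP+ M-MDSC (2.30 to 2.59). The ratio of these ratios was 1.14 (exact conditional interval 1.04 to 1.24). It did not hold when the trend of the log2 ratio with gene length, described further on, was removed, which gave 1.06 with an interval from 0.967 to 1.15, and it was 0.970 (0.889 to 1.06) by the trend with the longest GENCODE M1 transcript. Whether Cd274 differed between the libraries by more than Pdcd1lg2 thus depended on that correction. Together, the PD-1 ligands made up 59.7% (CHBP-) and 64.8% (CHBP+) of the summed FPKM of the 10 genes.

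**Figure D1:**
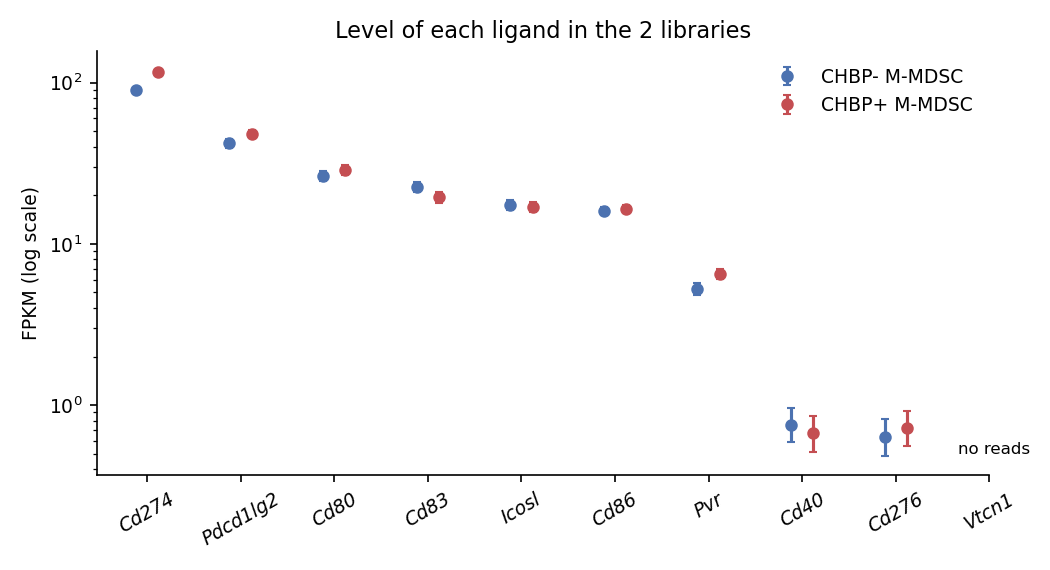
FPKM of the 10 ligand genes (log axis) in CHBP- M-MDSC (blue) and CHBP+ M-MDSC (red), 1 library each, with exact 95% Poisson intervals for counting error as bars. Cd274 stands highest at 89.9 and 117 FPKM, Cd40 and Cd276 lie under 1 FPKM, and Vtcn1 has no reads.

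Of the CD28 and CTLA-4 ligands, Cd86 was near equal in the libraries, and the call for Cd80 depended on the correction for gene length. Cd80 (ENSMUSG00000075122, chromosome 16 from 38458933 to 38486933) had 741 reads and 26.4 FPKM in CHBP- M-MDSC, and 800 reads and 28.9 FPKM in CHBP+ M-MDSC. Its ratio of CPM was 1.09, with an interval from 0.988 to 1.21. With the trend by gene length removed it was 1.24, with an interval from 1.12 to 1.37 that lay above 1. Cd86 (ENSMUSG00000022901, chromosome 16 from 36603869 to 36666081) had 1230 reads and 16.0 FPKM in CHBP-, and 1248 reads and 16.4 FPKM in CHBP+ M-MDSC. Its ratio of CPM was 1.03, with an interval from 0.949 to 1.11. For both genes, a difference of 1.5-fold lies outside the interval.

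Which of these ligands was the more abundant depended on the gene length used, and was not settled. By the deposited FPKM, Cd80 exceeded Cd86 by a ratio of 1.65 in the CHBP- library and 1.76 in the CHBP+ library. The gene length implied by count and FPKM was 4666 bases for Cd86 and 1701 bases for Cd80. The longest transcripts in the GENCODE M1 annotation, built on mm9, are 2564 bases for Cd86 and 2255 bases for Cd80. Per that length, which was tried once the values were known, the ratio was 0.685 and 0.729, the opposite order. The deposited reads were divided by that length and not counted anew on those transcripts. Reads and length thus come from different gene models, so these values show only that the order is sensitive to the length. The ratio of these ratios between the libraries was 1.06 with an interval from 0.935 to 1.21. It was 1.18 (1.04 to 1.34) with the trend by implied gene length removed, and 1.09 (0.960 to 1.24) with the trend by GENCODE M1 transcript removed.

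Icosl (ENSMUSG00000000732, chromosome 10 from 78069360 to 78079525), the ligand of ICOS, was near equal in the libraries. It had 795 reads and 17.5 FPKM in CHBP- M-MDSC, and 756 reads and 16.8 FPKM in CHBP+ M-MDSC, a ratio of CPM of 0.963 with an interval from 0.870 to 1.07.

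Cd83, a membrane protein of activated antigen-presenting cells, was the one ligand lower in CHBP+ M-MDSC by more than counting error before correction for gene length. Its 795 reads (CHBP-) and 677 reads (CHBP+) gave 22.5 FPKM and 19.4 FPKM. The ratio of CPM was 0.862 (interval 0.777 to 0.957) and the log2 ratio was -0.20. With the trend by gene length removed, the ratio was 0.961 and its interval, from 0.866 to 1.07, held 1. Cd83 (ENSMUSG00000015396) is listed on chromosome 13 from 43785107 to 43803130. Cd40 (ENSMUSG00000017652, chromosome 2 from 165055627 to 165072948), the receptor for CD40 ligand, was covered by 69 and 60 reads, at 0.757 FPKM and 0.666 FPKM. Its interval for the ratio of CPM ran from 0.612 to 1.26, so a difference was not detectable at this depth.

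Pvr, also named CD155, is bound by TIGIT, CD96 and CD226 on T and natural killer cells. Its 562 reads (CHBP-) and 686 reads (CHBP+) gave 5.25 FPKM and 6.49 FPKM. The ratio of CPM was 1.24, with an interval from 1.10 to 1.38, and the log2 ratio was 0.26. Before correction for gene length, Pvr (ENSMUSG00000040511, chromosome 7 from 19903578 to 19921160) had the next highest ratio of the ligands with at least 1 FPKM after Cd274.

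B7-H3 and B7-H4, members of the B7 family whose receptors on T cells are less well defined, were scarce or undetected. Cd276, which encodes B7-H3, was covered by 59 and 66 reads, at 0.636 FPKM and 0.720 FPKM. Its interval ran from 0.785 to 1.64 around a ratio of CPM of 1.13, and it is listed on chromosome 9 from 58524300 to 58555132 (ENSMUSG00000035914). Vtcn1 (ENSMUSG00000051076, chromosome 3 from 100825459 to 100896922), which encodes B7-H4, had no reads, and 0 reads allow a level of up to 0.182 CPM in CHBP- and 0.184 CPM in CHBP+ M-MDSC, that of 3 reads in each library. No other gene with at least 10 reads in either library overlapped any of the 10 ligands at the deposited coordinates.

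**Figure D2:**
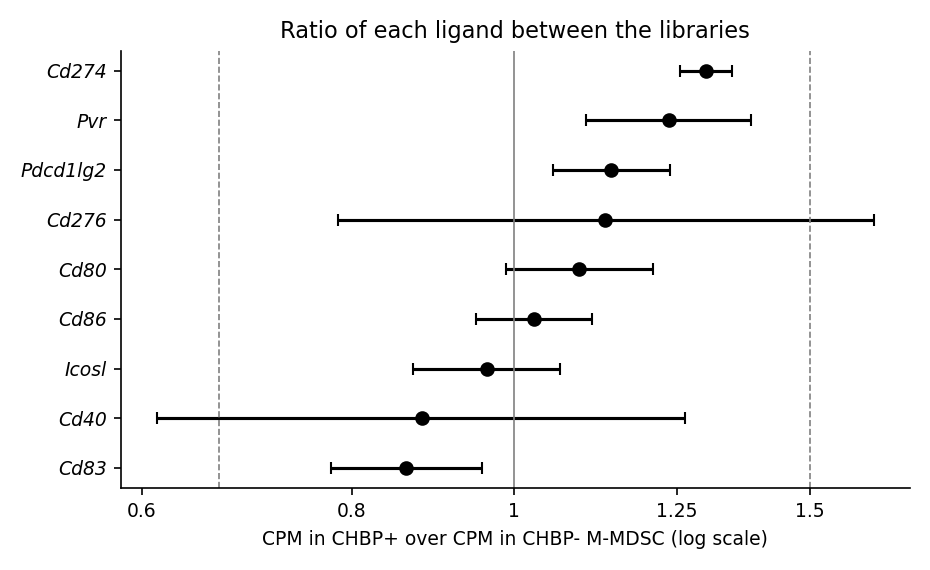
CPM in CHBP+ over CPM in CHBP- M-MDSC (log axis) for the 9 ligands with reads, with exact 95% intervals for counting error and no correction for gene length. The solid line marks 1 and the dashed lines 1.5-fold in either direction. The intervals of Cd274, Pvr and Pdcd1lg2 lie above 1, that of Cd83 lies below 1, and all 9 points lie within the dashed lines.

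Among the 7 ligands with at least 1 FPKM, 3 thus had an interval above 1, 1 had an interval below 1 and 3 had an interval that held 1. Intervals above 1 were found for 27.9% of the 10948 genes and intervals below 1 for 31.0%, since many reads make small differences exceed counting error. The median log2 ratio of the 7 ligands was 0.12, against -0.03 over all genes. With the trend by gene length removed, Cd80 joined the intervals above 1 and that of Cd83 held 1, so that 4 lay above 1 and 0 below, against 25.5% and 26.6% of all genes. No count is read as particular to the ligands.

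By deposited FPKM, the order in CHBP- M-MDSC was Cd274, Pdcd1lg2, Cd80, Cd83, Icosl, Cd86, Pvr, Cd40 and Cd276, and in CHBP+ M-MDSC the same apart from an exchange of Cd40 and Cd276. Icosl and Cd86 were not apart beyond counting error in either library, with a ratio of FPKM of 1.09 (interval 1.00 to 1.20) in CHBP- and 1.03 (0.936 to 1.12) in CHBP+ M-MDSC. Cd40 and Cd276 were not apart either, with intervals from 0.829 to 1.72 in CHBP- M-MDSC and, in reverse order, from 0.750 to 1.56 in CHBP+ M-MDSC. All other neighbours were apart by more than counting error on the deposited lengths. With the same reads, not counted anew, divided by the length of the longest GENCODE M1 transcript, Cd86 came next after Pdcd1lg2 in both libraries. It then had 29.1 FPKM and 29.9 FPKM. Cd83 then exceeded Cd80 in CHBP- M-MDSC, at 22.3 FPKM against 19.9 FPKM, while in CHBP+ M-MDSC Cd80 stayed above it, at 21.8 FPKM against 19.3 FPKM. Pvr came to 11.7 FPKM and 14.5 FPKM, and Cd40 (1.40 FPKM and 1.23 FPKM) and Cd276 (1.09 FPKM and 1.23 FPKM) came to lie over 1 FPKM. On these lengths, only Cd40 and Cd276 were neighbours not apart by more than counting error.

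Across all genes, the log2 ratio increased with the gene length, so the ligands were read against that trend. Spearman's rho over the 10948 genes, which are not independent replicates and share both libraries, was 0.478. By the implied length, the PD-1 ligands and Cd80 are short genes, of 3622 bases for Cd274, 1645 bases for Pdcd1lg2 and 1701 bases for Cd80, against a median of 4935 bases. At their lengths the trend lay at -0.08, -0.19 and -0.18, below their log2 ratios. With the trend removed, the log2 ratio was 0.45 for Cd274, 0.38 for Pdcd1lg2, 0.31 for Cd80 and 0.23 for Pvr, and single genes had an SD of 0.303 around it. For Cd83, the trend lay at -0.16, so that -0.05 of its log2 ratio of -0.20 was left. Icosl changed sign, from -0.05 to 0.07. With the longest GENCODE M1 transcript as the length, rho was higher, at 0.658 over 10508 genes. Removal of that trend lowered the ratio of CPM of Cd274 from 1.30 to 1.27, whereas removal by implied length raised it to 1.37. The direction of the correction for Cd274 thus depended on the length used, and its interval lay above 1 with either.

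**Figure D3:**
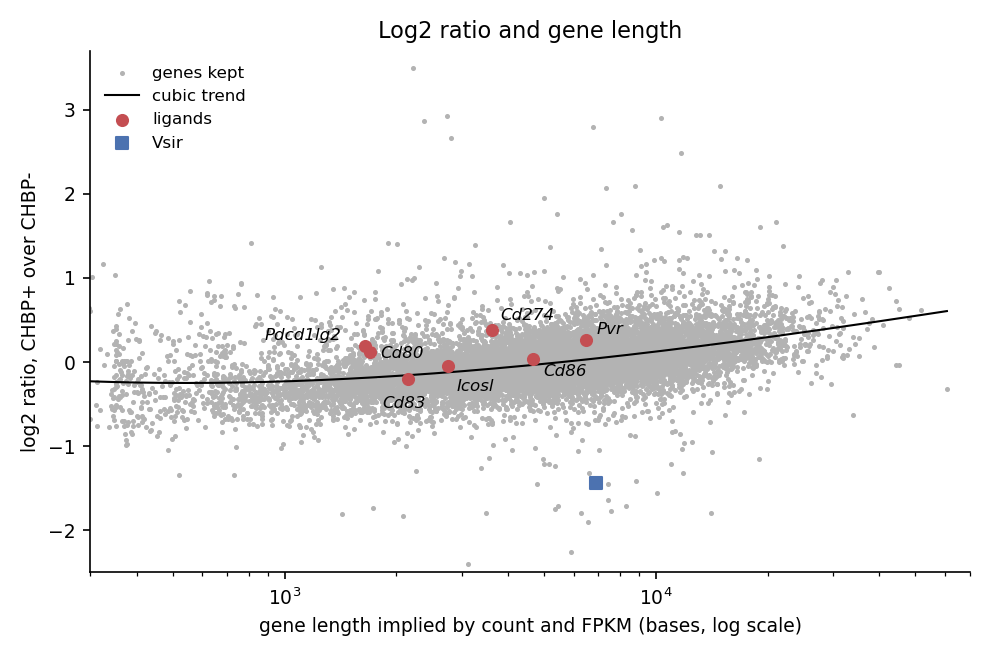
Log2 ratio of CHBP+ over CHBP- M-MDSC against the gene length implied by the deposited count and FPKM (log axis), for genes with at least 1 FPKM in one library (grey; a few shorter than the axis start are not shown), with the cubic trend (black line), the 7 ligands with at least 1 FPKM (red) and Vsir (blue square). Of the 7 ligands, 6 lie above the trend and Cd83 lies just below it, while Vsir lies far below at a log2 ratio of -1.44.

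To place the ligands among other molecules by which myeloid cells address T cells, 16 further B7, butyrophilin, nectin and related ligands were listed, of which 15 were matched to the table and 8 had at least 1 FPKM. None was at least 1.5-fold higher in CHBP+ M-MDSC and 1 was at least 1.5-fold lower. That gene was Vsir, listed under its older symbol 4632428N05Rik (ENSMUSG00000020101, chromosome 10 from 60346851 to 60372684), which encodes VISTA, an inhibitory B7 family molecule of myeloid cells. Its 5779 reads (CHBP-) and 2035 reads (CHBP+) gave 50.9 FPKM and 18.2 FPKM. The ratio of CPM was 0.357, with an interval from 0.339 to 0.375, and the log2 ratio was -1.44, or -1.48 with the trend removed. Vsir thus had FPKM between those of Pdcd1lg2 and Cd274 in CHBP- M-MDSC and near that of Cd83 in CHBP+ M-MDSC. Its span overlaps that of Cdh23, which had 34 and 58 reads, and the part of this overlap in the reads of Vsir was not tested. The most abundant of these ligands were Cd47, which signals to phagocytes through SIRPA, at 109 FPKM and 115 FPKM, and Lgals9, which encodes galectin-9, at 50.1 FPKM and 47.0 FPKM. The median log2 ratio of the 8 genes was -0.07.

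Of 9 listed costimulatory ligands of the TNF family, 6 had at least 1 FPKM, and none of these 6 was 1.5-fold apart in log2 ratio, with a median of 0.01. Among those under 1 FPKM, Tnfsf15, which encodes TL1A, had 16 and 45 reads, a ratio of CPM of 2.85 with an interval from 1.58 to 5.40. The most abundant were Tnfsf14, which encodes LIGHT, at 13.5 FPKM and 12.3 FPKM, and Tnfsf9, which encodes 4-1BB ligand, at 8.48 FPKM and 8.34 FPKM. The span of Tnfsf9, which had 172 and 167 reads, overlaps that of Gm11110, which had 120 and 106 reads, so that its level is uncertain.

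The receptors of the ligands, which T cells carry, ranged from 2 reads for Cd40lg to 3514 reads for Tnfrsf9. Of 15 listed, 9 had at least 1 FPKM in one library, and none was 1.5-fold apart in log2 ratio. For PD-1, Pdcd1 had 37 and 23 reads, and for CTLA-4, Ctla4 had 11 and 15 reads. Icos had 20 and 18 reads, Cd40lg 2 and 2, Lag3 16 and 19, and Cd27 30 and 22. The span of Cd27 overlaps that of Vamp1, which had 511 and 667 reads, so that the level of Cd27 is uncertain. Among the receptors of Pvr, Tigit had 9 reads in each library, Cd226 had 44 in each and Cd96 had 88 in each, next to the 562 and 686 reads of Pvr itself. Cd28 had 183 and 248 reads (1.63 FPKM and 2.24 FPKM), with a ratio of CPM of 1.37 and an interval from 1.13 to 1.67. Btla had 1.28 FPKM and 1.27 FPKM, and Tnfrsf18 had 2.11 FPKM and 1.98 FPKM. The span of Tnfrsf18, which had 134 and 124 reads, overlaps that of Gm16008, which had 16 and 18 reads. Tnfrsf4, which encodes OX40, had 48 and 28 reads, a ratio of CPM of 0.591 with an interval from 0.357 to 0.961. Havcr2, which encodes TIM-3 and is also a myeloid gene, had 4.12 FPKM and 5.46 FPKM. Tnfrsf9, which encodes 4-1BB, was the exception in level, with 3090 and 3514 reads, or 43.8 FPKM and 50.5 FPKM. Its span overlaps that of Camta1, which had 125 and 128 reads.

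CD40 signals through TRAF proteins to NF-kappaB, which drives many of these ligands, and all 18 listed genes of that route had at least 1 FPKM. At least 1.5-fold higher in CHBP+ M-MDSC was 1 gene, at least 1.5-fold lower was 1 gene, and the other 16 lay between, with a median log2 ratio of 0.10. The higher gene was Traf3, a restraint on non-canonical NF-kappaB signalling, with 356 reads (CHBP-) and 1058 reads (CHBP+). Its ratio of CPM was 3.01 (interval 2.67 to 3.40) and its log2 ratio was 1.03, or 0.73 with the trend removed. The lower gene was Tnfaip3, which encodes A20, an inhibitor of NF-kappaB, with 1709 and 944 reads. Its ratio of CPM was 0.559 (interval 0.516 to 0.606) and its log2 ratio was -0.71, or -0.91 with the trend removed. The most abundant genes of the list were Nfkbia, at 115 FPKM and 91.1 FPKM, and Rela, at 30.9 FPKM and 28.9 FPKM.

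Of 10 listed genes for the turnover of CD86 and PD-L1 at the cell surface, 8 were matched and had at least 1 FPKM, none of them 1.5-fold apart. Cmtm6, which keeps PD-L1 from degradation, had 64.9 FPKM and 63.1 FPKM, and Spop, an adaptor of the ubiquitin ligase that marks PD-L1 for degradation, had 64.0 FPKM and 55.9 FPKM.

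MHC class II genes, whose products present the antigen that the ligands accompany, had a log2 ratio below 0 in 10 of 11 cases, as had 5882 of the 10948 genes, and none was 1.5-fold apart. Before correction for gene length, the interval lay below 1 for 8 of the 11, against 31.0% of all genes, and held 1 for Ctss and H2-Ob. Intervals with the trend removed were not counted for this list. Their median log2 ratio was -0.35, and -0.16 with the trend removed, when 3 of 11 lay above 0. Cd74, the invariant chain, had 567 FPKM and 438 FPKM, and Ctss, which cleaves it, had 979 FPKM and 969 FPKM. The exception was Ciita, the activator of MHC class II transcription, with 457 and 586 reads and a log2 ratio of 0.32, and its span overlaps that of Dexi, which had 136 and 102 reads.

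**Figure D4:**
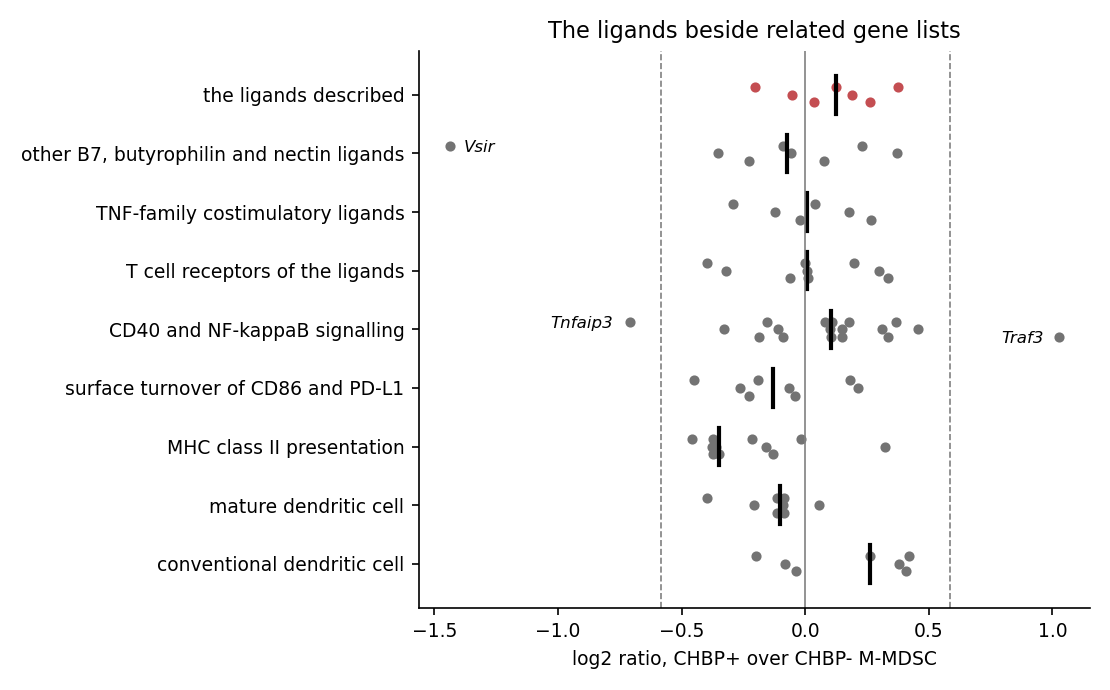
Log2 ratio of CHBP+ over CHBP- M-MDSC for each gene with at least 1 FPKM in one library (points, spread vertically only to separate them), for the ligands described here (red) and related lists (grey), with the list median as a black bar. Dashed lines mark 1.5-fold. The ligands lie between -0.20 and 0.38, while Vsir, Tnfaip3 and Traf3 lie outside the dashed lines.

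Other cells that carry these ligands were looked for by their markers, and their part in the differences was not tested. Of 12 markers of mature dendritic cells, 8 had at least 1 FPKM. The 12 summed to 231 FPKM in CHBP- and 217 FPKM in CHBP+ M-MDSC, with Tmem123 (76.0 FPKM and 79.0 FPKM) and Ccl22 (63.3 FPKM and 59.4 FPKM) highest. Of the 8 genes, Tmem123 alone had a log2 ratio above 0 and 7 lay below, as did 5882 of the 10948 genes. With the trend by gene length removed, 3 of the 8 lay above 0. Of 10 markers of conventional dendritic cells, 7 had at least 1 FPKM and the sum was 148 FPKM and 191 FPKM, led by Itgax (107 FPKM and 142 FPKM) and Irf4 (20.7 FPKM and 27.3 FPKM), while Xcr1 had no reads. Itgax made up most of that sum, and of the 7 genes 4 had a log2 ratio above 0 and 3 below. Of 8 B cell markers, 7 had at least 1 FPKM and the sum was 47.7 FPKM and 34.3 FPKM. Among them, Cd79a was at least 1.5-fold lower in CHBP+ M-MDSC, at 18.5 FPKM and 10.5 FPKM, and Cd79b had 13.8 FPKM and 9.07 FPKM. T cell markers summed to 7.91 FPKM and 7.07 FPKM over 10 genes, 3 of them with at least 1 FPKM, the highest being Lck (1.88 FPKM and 1.57 FPKM) and Trac (1.11 FPKM and 1.06 FPKM). Natural killer cell markers summed to 5.45 FPKM and 5.40 FPKM over 8 genes, 2 of them with at least 1 FPKM, Gzmb and Klrd1, and Ncr1 had no reads.

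The markers of the labelled cells and of granulocytes were present in both libraries. All 10 monocyte and macrophage markers, which include the sorting marker gene Ly6c2, had at least 1 FPKM, with Lyz2 (9756 FPKM and 7830 FPKM) and Cd68 (284 FPKM and 286 FPKM) highest and a sum of 10595 FPKM and 8658 FPKM. Lyz2 made up most of that sum and of its difference between the libraries. Of the 10 genes, 5 had a log2 ratio above 0 and 5 below. All 10 neutrophil markers also had at least 1 FPKM, with a sum of 3323 FPKM and 3020 FPKM, led by Mmp8 (1290 FPKM and 1546 FPKM) and S100a9 (1269 FPKM and 937 FPKM). Mmp8, S100a9 and S100a8 made up most of that sum. Lowest were Ly6g (2.19 FPKM and 2.12 FPKM), Camp (1.76 FPKM and 1.38 FPKM) and Ltf (1.54 FPKM and 1.63 FPKM). Elane was at least 1.5-fold lower in CHBP+ M-MDSC (75.2 FPKM and 46.3 FPKM). Of the 10 neutrophil markers, 3 had a log2 ratio above 0 and 7 below, and with the trend removed 6 lay above 0. Of 9 mast cell and basophil markers, 6 had at least 1 FPKM and the sum was 217 FPKM and 191 FPKM, led by Cpa3 (141 FPKM and 130 FPKM). Mcpt8 was at least 1.5-fold lower (46.1 FPKM and 29.9 FPKM) and Ms4a2 at least 1.5-fold higher (2.46 FPKM and 6.11 FPKM). Of the sorting markers, the entries for Itgam, which encodes CD11b, were higher in CHBP+ M-MDSC, with 18653 and 27265 reads for one and 8703 and 13147 for another that overlaps it and was at least 1.5-fold higher. Ly6c2 had 4091 and 2411 reads and was at least 1.5-fold lower, Ly6c1 had 201 and 156 reads, and Ly6g had 46 and 44 reads. Il7r, which encodes CD127 and was not among the markers of this sort, had 2281 and 2713 reads.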

How the data were processed

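RNA of sorted M-MDSCs was sequenced as 1 library per condition, grouped by the sample titles. The deposited counts are raw reads per gene made by the authors. The deposited FPKM are the authors' counts per gene length and library total, and the lengths they imply agreed between the libraries within 0.1% for 100.0% of 15864 genes with reads in both. The methods name TopHat2, HT-seq and mm9, whereas the submitters' processing notes name HISAT2 2.0.4, Cufflinks 2.1.1, Cuffdiff and GRCm38 (mm10). The deposited coordinates are those of GRCm38, and which of the programs made the table could not be settled. All 10 ligands overlapped the RefSeq gene of their name on GRCm38. The handling of strand and of multi-mapping reads is not given in the sources used here.

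The methods' fold threshold of 1.5 was used without their P value, since no replicate spread exists and no count model was fitted. Genes with at least 1 FPKM in one library were kept, the log2 ratio had a pseudocount of 1 FPKM, and no test between conditions was made. The intervals cover counting error only, since each condition had 1 library. Reads are not independent molecules, so the intervals may be too narrow even for counting error. The length trend was a least-squares polynomial of degree 3 on log2 length. The ligands and lists were chosen with earlier results of these data known. Of each further list, genes at least 1.5-fold apart and the 2 of highest mean FPKM were named, together with all receptors, the sorting markers and Il7r. Ciita, Tnfsf15, H2-Ob, the scaling per GENCODE M1 transcript and the intervals divided by the fitted trend, itself taken without error, were chosen after values were seen. The calculations, tested on simulated data, ran in Python 3.11.15 with pandas 2.3.3, numpy 2.4.6, matplotlib 3.10.9 and scipy 1.17.1. TMM factors came from edgeR 4.0.16 (R 4.3.3). Protein was not analysed here, and 1 further gene list is not reported here.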

Additional observations from a re-analysis of the deposited data

How the results depend on the processing

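No ligand was at least 1.5-fold higher or lower under any of the 10 alternatives run: a pseudocount of 0.1, no filter, a minimum of 5 FPKM, a fold of 2, the interval as a further criterion, the median log2 ratio set to 0, trimmed mean of M values, CPM, and removal of the trend with the implied gene length or with the longest GENCODE M1 transcript, the last of which was added after seeing the data. The minimum of 5 FPKM, the fold of 2 and the interval as a further criterion can only remove calls. Since there were none to remove, the result under these settings was fixed in advance. Over the 6 alternatives that change a log2 ratio, that of Cd274 ran from 0.34 to 0.45, that of Pdcd1lg2 from 0.19 to 0.38, that of Pvr from 0.23 to 0.30 and that of Cd83 from -0.21 to -0.05. Icosl alone changed sign among the ligands, with both trend removals. Removal of the trend with implied length moved 4 of 7 ligands (Cd80, Cd83, Cd274 and Pdcd1lg2) outside their counting intervals, and with the GENCODE M1 length 1 of 7. With the same reads, not counted anew, divided by the length of the longest GENCODE M1 transcript, the ratio of Cd80 to Cd86 reversed. It went from 1.65 to 0.685 in CHBP- and from 1.76 to 0.729 in CHBP+ M-MDSC, because the lengths of both genes differ between the gene models. That of Cd274 to Pdcd1lg2 was 2.14 and 2.44 with either length. The ratio of ratios of Cd274 and Pdcd1lg2 went from 1.14 to 1.06 with the implied length trend removed, when its interval held 1, and reversed to 0.970 with the GENCODE M1 trend removed. That of Cd80 and Cd86 went from 1.06 to 1.18 with the implied length trend removed, when its interval lay above 1. With either trend removed, the interval of Cd80 lay above 1 and that of Cd83 held 1.

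Over all genes, 374 were at least 1.5-fold higher and 316 lower. The smaller pseudocount gave 665 and 571, the 5 FPKM minimum 218 and 209, and the fold of 2 left 85 and 46, while CPM gave 609 higher. With the length trend removed they were 312 and 168, and with the GENCODE M1 trend removed 229 and 111, and the cause was not tested beyond the settings themselves. The few reads of Cd40 and Cd276 limit what can be said of them. No paired analysis was possible because each condition was sequenced once, which also leaves no replicate to omit.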
